A study of Mus musculus with 77 samples.

Results

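Enhancers bound by both PU.1 and CEBPA and assigned by the authors to the granulocyte stage were described here across the steps from multipotent progenitors to granulocytes and in progenitors without Cebpa. In the authors' deposited table of 44002 mouse enhancers, 2203 (5.01%) carried the binding class PU.1 and CEBPA together with a stage class that includes granulocytes. They made up 54.3% of the 4054 enhancers with both factors and 11.8% of the 18698 enhancers with a granulocyte stage. They were assigned to 1592 genes, 15.8% of the 10096 genes in the table. Of these genes, 1172 had 1 such enhancer, 295 had 2 and 125 had 3 or more.

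The study mapped enhancers and transcription factors during granulocyte and monocyte formation by ChIP-seq, which sequences the DNA bound to a protein or histone mark, in cells sorted from mouse bone marrow. Groups with Cebpa KO came from preGM, Kit-positive progenitors that lack lineage markers, Sca-1, CD150 and CD105. The labels give neither how nor when Cebpa was deleted, and no age. The wild type groups were LSK (cells without lineage markers, gated on Sca-1 and Kit), preGM with the markers just named, GMP (Kit-positive cells without Sca-1 and CD150 that carry Fc gamma receptors II/III) and granulocytes (positive for Mac1 and Gr-1). H3K27ac and H3K4me1 were given for the 4 wild type groups and for KO preGM, PU.1 for KO preGM and for wild type LSK, preGM and GMP, and CEBPA for wild type preGM alone. Each group was 1 deposited signal value per enhancer that stands for 2 libraries, so no group had replicate values, and no difference below was tested against a spread. Counts of enhancers at least 2-fold apart are therefore descriptions. The share among all 44002 enhancers stands as the background beside the first count of each comparison, and counts for gene lists and for other classes of enhancers in the same comparison are read against it. Depth per library is unknown.

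PU.1, encoded by Spi1, is an ETS family factor needed to form myeloid cells, and CEBPA is a basic leucine zipper factor needed for the step into granulocyte-monocyte progenitors. Enhancers are stretches of DNA outside promoters at which such factors bind. Nucleosomes beside them carry H3K4me1 whether the enhancer is active or only primed, and H3K27ac when it is active. In granulocytes the genes that serve the mature cell encode granule proteins, the oxidase that makes superoxide, adhesion molecules, and receptors for chemokines and microbial products.

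The stage classes did not all describe enhancers kept from an earlier stage. The class was granulocytes alone for 756 of the 2203 (34.3%), GMP and granulocytes for 518 (23.5%), preGM through granulocytes for 675 (30.6%) and all 4 stages for 254 (11.5%). Among all enhancers with a granulocyte stage, 49.9% were of granulocytes alone. The median H3K4me1 signal in GMP was 3.19 in the class of granulocytes alone, 4.18 with GMP added, 4.57 with preGM added and 5.79 with all 4 stages. Medians in GMP had the same order for H3K27ac (1.427, 1.85, 2.345 and 3.458) and PU.1 (5.975, 6.488, 6.633 and 7.16). The table does not state the criteria behind the stage and binding classes. The enhancers were thus chosen by measured values, the PU.1 and CEBPA binding and the stage class, so their levels of PU.1 and CEBPA and their marks in granulocytes are given as description. The enhancers were 1 to 964 bp wide, with a median of 174 bp against 194 bp for all, lay on 19 chromosomes and had 19.6% of their number within 1000 bp of another of the same kind. Their place relative to exons and introns was not analysed here, as no annotation of their build, mm9, was used.

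Expression of named genes was in the same table as 1 value per gene in each group, in a set for the 4 wild type stages and a set for KO and wild type preGM. Their scale is not stated, no value is 0, and the values for wild type preGM in the sets differ (standard deviation of their log2 ratio 1.43 over 10096 genes), so values were compared within a set only. Fewer cells of a type and less RNA per cell cannot be told apart in such bulk values. Cebpa itself had an expression value of 48.25 in KO preGM, against 208.3 in wild type preGM. None of the 16 enhancers assigned to Cebpa had both the binding class and the stage class, and Spi1 was not analysed here. In LSK, preGM, GMP and granulocytes in turn, Kit, the stem cell factor receptor, was at 922.2, 911.6, 841.2 and 110.5, and Itgam, which encodes Mac1, at 11.69, 12.23, 11.48 and 72.0. No erythroid marker gene of 4 in the table had a PU.1 and CEBPA enhancer with a granulocyte stage, and 1 of 4 B cell genes (Cd79a), 1 of 5 T and NK cell genes (Cd3d) and 1 of 6 megakaryocyte genes (Nfe2) did. So did 3 of 5 dendritic cell genes (Batf3, Flt3 and Itgax) and 1 of 2 genes of mast cells, basophils and eosinophils (Prg2). The share over all assigned genes was 15.8%, and counts from such short lists were not tested against it.

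The deposited files give positions of the enhancers but no sequences, and enhancer sequences are not shown here. Promoters of the assigned genes were read instead from RefSeq, build GRCm38.p6, as the 250 bases before to the 50 bases after the transcription start. Letters of a PU.1-type site (AGGAAGT) and of a C/EBP-type site (TTGCNNAA) were searched on both strands. Of 1152 matched promoters of genes with a PU.1 and CEBPA granulocyte-stage enhancer, 13% held the PU.1-type letters and 10.7% the C/EBP-type letters, against 9.57% and 10.8% of all 27025 promoters. The corresponding shares were 8.95% and 8.04% of the 7338 promoters of genes with any enhancer. Of 49 promoters of genes in the myeloid and other gene lists used below, 12 held the PU.1-type letters, 6 the C/EBP-type letters and 1, that of Tlr6, both. Shown are 6 of them, each belonging to an enhancer whose values are given below: Tlr6, S100a8 and Lyz2, where H3K27ac was higher in granulocytes than in GMP; Elane and Mpo, where it was lower; and Fut7, whose enhancer had one of the strongest CEBPA signals. Capitals mark the letters searched for, and no site was tested for binding.
Tlr6, chr5:64959117-64959416, minus strand: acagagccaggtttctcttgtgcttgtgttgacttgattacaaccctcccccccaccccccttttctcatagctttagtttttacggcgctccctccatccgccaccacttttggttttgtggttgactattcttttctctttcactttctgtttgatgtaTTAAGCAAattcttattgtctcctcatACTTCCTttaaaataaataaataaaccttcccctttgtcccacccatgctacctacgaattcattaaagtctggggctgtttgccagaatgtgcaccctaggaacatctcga
S100a8, chr3:90668821-90669120, plus strand: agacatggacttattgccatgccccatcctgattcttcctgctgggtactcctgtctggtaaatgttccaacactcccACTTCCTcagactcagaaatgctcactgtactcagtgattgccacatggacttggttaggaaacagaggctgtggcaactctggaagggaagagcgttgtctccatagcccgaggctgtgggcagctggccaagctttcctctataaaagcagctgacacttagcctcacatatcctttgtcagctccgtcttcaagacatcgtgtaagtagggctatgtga
Lyz2, chr10:117282223-117282522, minus strand: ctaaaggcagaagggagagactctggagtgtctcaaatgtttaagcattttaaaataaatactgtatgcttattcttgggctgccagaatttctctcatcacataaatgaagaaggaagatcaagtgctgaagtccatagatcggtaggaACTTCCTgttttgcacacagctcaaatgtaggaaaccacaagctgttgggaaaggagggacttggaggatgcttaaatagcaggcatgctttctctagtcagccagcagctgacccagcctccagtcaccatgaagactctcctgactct
Elane, chr10:79886062-79886361, plus strand: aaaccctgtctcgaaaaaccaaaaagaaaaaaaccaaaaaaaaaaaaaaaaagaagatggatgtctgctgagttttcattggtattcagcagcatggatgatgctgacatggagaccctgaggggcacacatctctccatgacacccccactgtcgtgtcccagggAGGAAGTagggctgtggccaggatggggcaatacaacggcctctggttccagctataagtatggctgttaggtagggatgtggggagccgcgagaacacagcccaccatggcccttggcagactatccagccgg
Mpo, chr11:87793534-87793833, plus strand: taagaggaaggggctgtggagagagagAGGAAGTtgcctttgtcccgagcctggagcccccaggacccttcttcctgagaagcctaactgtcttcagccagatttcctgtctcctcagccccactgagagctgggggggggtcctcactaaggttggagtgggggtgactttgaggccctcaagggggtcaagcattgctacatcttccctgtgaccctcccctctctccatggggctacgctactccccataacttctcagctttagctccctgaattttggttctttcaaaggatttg
Fut7, chr2:25422992-25423291, plus strand: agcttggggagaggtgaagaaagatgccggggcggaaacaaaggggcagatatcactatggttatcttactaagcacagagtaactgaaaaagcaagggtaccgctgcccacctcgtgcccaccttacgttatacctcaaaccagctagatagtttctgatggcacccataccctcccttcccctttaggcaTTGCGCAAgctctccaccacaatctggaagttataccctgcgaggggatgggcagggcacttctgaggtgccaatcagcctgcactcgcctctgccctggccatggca

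H3K27ac at the 2203 enhancers was low in LSK and preGM, higher in GMP and highest in granulocytes. The median signal was 1.14 in LSK, 1.26 in preGM, 2.01 in GMP and 3.71 in granulocytes. Over all enhancers the share with the highest signal in granulocytes was 48.3%, and among the PU.1 and CEBPA enhancers with a granulocyte stage it was 75.5% (1664). A further 22.2% (490) were highest in GMP, against 30.8% of all enhancers. The signal was higher at each successive stage at 33.0% (726), against 15.5% of all. Enhancers with both factors whose class named progenitors only had similar medians up to GMP, 1.18 in LSK, 1.29 in preGM and 2.03 in GMP, but 2.06 in granulocytes, a difference that the stage class itself selects.

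**Figure D1:**
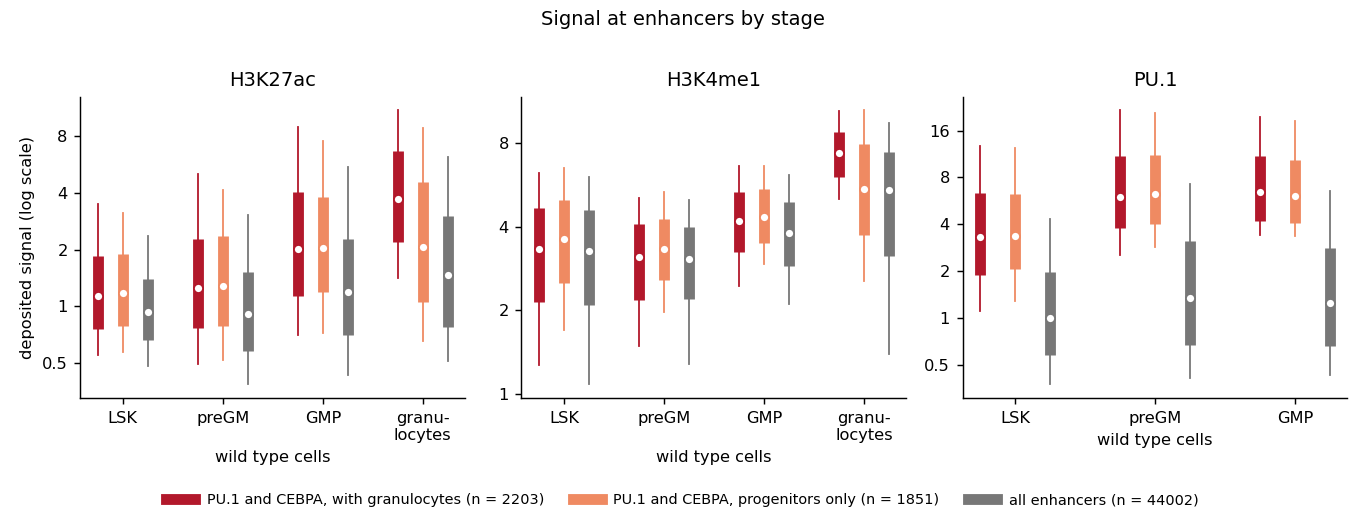
Deposited signal (vertical axis, log scale) of H3K27ac, H3K4me1 and PU.1 in wild type LSK, preGM, GMP and, for the histone marks, granulocytes (horizontal axis) at PU.1 and CEBPA enhancers with a granulocyte stage, at PU.1 and CEBPA enhancers of progenitors only, and at all enhancers. Circles are medians, thick bars run between the quartiles and thin lines between the 10th and 90th percentiles; the 2 classes bound by both factors part at H3K27ac in granulocytes, with medians of 3.71 and 2.06.

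The steps differed in size. From here on a log2 ratio has a pseudocount added to both values, 0.7 for H3K27ac, 2 for H3K4me1 and 0.6 for PU.1, so that ratios of weak signals are understated. Between preGM and LSK, 1.04% of the enhancers (23; background 0.72%) had at least 2-fold more H3K27ac in preGM and 0.0908% (2; background 0.364%) at least 2-fold less. Between GMP and preGM it was at least 2-fold higher in GMP at 14.9% (328; background 9.21%) and lower at 0.136% (3; background 0.411%). Between granulocytes and GMP it was at least 2-fold higher in granulocytes at 30.0% (661; background 14.1%) and lower at 4.04% (89; background 6.05%). Relative to the median of all enhancers, which was itself 0.29 higher on the log2 scale in GMP than in preGM, the share higher in GMP was 5.08% (2.77% of all). Between granulocytes and LSK 59.4% (1308; background 26.8%) were at least 2-fold higher in granulocytes and 0.0908% (2, at Cpsf6 and Nr6a1; background 1.12%) lower; the share higher was 34.4% relative to the median of all enhancers (13% of all). The shares also depend on the pseudocount: at 4 times the value, 12.0% were higher in granulocytes than in GMP. CEBPA-only enhancers with a granulocyte stage had 31.7% at least 2-fold higher in granulocytes than in GMP and PU.1-only ones 20.0%, so the share at enhancers with both factors lay between theirs. Enhancers with a granulocyte stage and neither factor had 25.3%. The share of 30.0% thus lay nearer to that of other enhancers with this stage than to the background.

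H3K4me1 was higher in granulocytes than in GMP at almost every one of these enhancers, which the stage class may fix in part. The median signal was 3.33 in LSK, 3.10 in preGM, 4.20 in GMP and 7.34 in granulocytes. Of the enhancers, 97.1% (2140) had their highest H3K4me1 in granulocytes, against 66.4% of all enhancers. At least 2-fold more H3K4me1 in granulocytes than in GMP was seen at 7.58% (167; background 9.69%) and less at 0% (background 2.81%). The share with more lay below the background, and relative to the median of all enhancers it was 1.13% (3.43% of all). Between GMP and LSK, 3.13% (69; background 2.23%) were at least 2-fold higher in GMP, or 1.45% relative to that median (1.07% of all), and 0% lower (background 0.241%). They were led by enhancers of Tfdp1, Pgd and Nisch.

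The largest H3K27ac ratios of granulocytes to GMP that are named here stood at enhancers with 2.40 or less in GMP, where the median was 2.01. A low value in GMP raises such a ratio. The enhancer of Coro1c (chr5:114322349-114322434, mm9), which encodes an actin-binding coronin, had 1.51 in LSK, 1.43 in preGM, 1.29 in GMP and 17.5 in granulocytes. A pair of enhancers less than 1000 bp apart and assigned to Fosl2, an AP-1 family factor, had 0.757 and 1.20 in GMP and 11.8 and 15.0 in granulocytes, a log2 ratio of 3.10 and 3.05. Dedd2 (24.6 in granulocytes against 2.40 in GMP) and Golga7b (14.8 against 1.13) followed. In all of these the signal in granulocytes was well above that in GMP.

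The enhancer of Mpo, which encodes myeloperoxidase of the primary granules, had the opposite course. Its H3K27ac signal (chr11:87610360-87610695, mm9) was 1.75 in LSK, 4.78 in preGM, 37.9 in GMP and 1.32 in granulocytes, so that it stood apart in GMP. On the log2 scale the ratio was 2.82 for GMP over preGM and -4.26 for granulocytes over GMP, the highest ratio at the first of these steps and the lowest at the second. H3K4me1 there was 3.33 in LSK, 5.08 in preGM, 3.41 in GMP and 8.30 in granulocytes, and the authors' stage class is granulocytes alone. Other enhancers with much less H3K27ac in granulocytes were assigned to Nsmaf (1.51 in granulocytes against 13.4 in GMP), Irf2bp2 (2.76 against 19.8) and Rpl10a (3.39 against 19.4).

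Among primary granule genes, 4 of 7 in the table had 1 PU.1 and CEBPA enhancer each. H3K27ac was at least 2-fold lower in granulocytes than in GMP at Mpo and at Elane, which encodes neutrophil elastase (1.69 in granulocytes against 5.93 in GMP). At Ctsc, the protease that activates the granule serine proteases, it was 1.57 in granulocytes against 2.55 in GMP. At Lyz2, which encodes lysozyme and stays expressed in mature cells, it was 3.07 in granulocytes against 1.00 in GMP. Expression ran the same way gene by gene: Mpo had 1982 in granulocytes against 18650 in GMP, Elane 97.43 against 697.6, Ctsc 466.5 against 1784, and Lyz2 11910 against 418.9.

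In the list of secondary granule and mature neutrophil genes, each such enhancer had more H3K27ac in granulocytes than in GMP. The genes with one were Cxcr2, Cyp4f18, Il1r2, Mmp9 and S100a8, while the granule protein genes Ltf, Lcn2, Camp, Ngp and Mmp8 had none. Of 19 such genes in the table, 5 had 1 PU.1 and CEBPA enhancer each, and all 5 were at least 2-fold higher in granulocytes than in GMP, with a median log2 ratio of 1.62 against 0.14 over all enhancers. The H3K27ac signal at Mmp9, which encodes gelatinase B, was 0.460 in LSK, 0.483 in preGM, 0.776 in GMP and 4.34 in granulocytes. At S100a8, a subunit of calprotectin, it was 0.664 in LSK, 0.222 in preGM, 0.430 in GMP and 2.77 in granulocytes. At Cxcr2, the chemokine receptor that draws neutrophils out of the marrow, it was 5.26 in granulocytes against 1.33 in GMP. All 5 genes had expression at least 2-fold higher in granulocytes, from 171.4 against 47.6 in GMP for Cxcr2 to 6049 against 30.13 for Mmp9, as did all 19 genes of the list with or without such an enhancer.

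The phagocyte NADPH oxidase, which makes superoxide against microbes, had 5 such enhancers at 4 of its 6 genes in the table, and 3 of the 5 were at least 2-fold higher in granulocytes than in GMP. The H3K27ac signal at one enhancer of Ncf1, the organizing cytosolic subunit, was 1.52 in LSK, 1.63 in preGM, 2.31 in GMP and 16.2 in granulocytes. The other Ncf1 enhancer, less than 10000 bp away, had 2.60 in granulocytes against 2.25 in GMP, so neighbours assigned to 1 gene differed. Ncf4, a further cytosolic subunit, had 0.936 in LSK, 2.46 in preGM, 6.14 in GMP and 14.6 in granulocytes. Cyba, the small membrane subunit, had 8.06 in granulocytes against 2.44 in GMP, and Rac1, the GTPase of the complex, 2.06 against 1.12. Expression in granulocytes and GMP was 9548 against 156.7 for Cyba, 3946 against 500.1 for Ncf4 and 4462 against 2077 for Ncf1.

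Of 23 enhancers at 12 adhesion and migration genes, 12 were at least 2-fold higher in granulocytes than in GMP and 1 was at least 2-fold lower. The 4 enhancers of Cxcr4, the receptor that holds cells in the marrow, had 4.62, 3.75, 10.03 and 7.05 in granulocytes, against 1.37, 1.76, 1.39 and 1.39 in GMP. Expression of Cxcr4 did not follow: it was 422.5 in granulocytes against 768.8 in GMP. Both enhancers of Itgb2, the shared beta chain of the leukocyte integrins, were higher in granulocytes (8.97 against 2.53 in GMP, and 8.14 against 1.80), with expression of 10860 against 238.4. Of the 5 enhancers of Cd47, a signal against being eaten, 1 was at least 2-fold lower in granulocytes (1.00 against 3.67 in GMP), which is the 1 counted above. The others had 2.27, 6.05, 3.07 and 0.935 in granulocytes against 2.33, 6.24, 1.66 and 2.20 in GMP. Cd47 expression was 4994 in granulocytes against 2515 in GMP.

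At innate sensors and cytokine receptors the share with more H3K27ac in granulocytes lay near the 30.0% of all 2203 enhancers. Of 11 enhancers at 5 genes of innate sensing and NF-kB, 4 were at least 2-fold higher in granulocytes and 1 was lower. The higher ones were those of Tlr6 (15.9 in granulocytes against 2.59 in GMP) and the 3 neighbouring enhancers of Tlr2 (6.63, 7.89 and 4.89 against 1.96, 2.19 and 0.767), which encode partner receptors for bacterial lipopeptides. The lower one was at Nfkb1 (2.28 in granulocytes against 6.61 in GMP). Among 17 enhancers of 10 cytokine receptor genes, 6 had at least 2-fold more H3K27ac in granulocytes and 0 had at least 2-fold less. The higher ones included those of the TNF receptor genes Tnfrsf1a (7.98 in granulocytes against 1.20 in GMP) and Tnfrsf1b (14.9 against 3.17). Tnfrsf1a expression was 1761 in granulocytes against 731.6 in GMP.

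Counts at the remaining lists rest on few enhancers and were not tested against each other. Of 17 enhancers at 9 genes for myeloid transcription factors, 4 were at least 2-fold higher in granulocytes than in GMP, 2 each at Klf2 and Irf2. Another 2 were at least 2-fold lower, at Gfi1 (2.97 in granulocytes against 7.09 in GMP) and at another enhancer of Irf2 (1.53 against 4.33). None of 6 enhancers of stem and multipotent progenitor genes (Fli1, Flt3, Ikzf1 and Runx1) and none of 3 of monocyte and macrophage genes (Cd68, Emr1 and F13a1) differed by 2-fold. Among 13 enhancers of 7 cell cycle genes 2 were at least 2-fold higher, including 1 of the 5 assigned to Mki67 (8.64 in granulocytes against 1.94 in GMP). Mki67 expression was 1520 in granulocytes against 3817 in GMP. The 1 that was at least 2-fold lower was at Ccnd2, the cyclin D2 gene (0.599 in granulocytes against 5.04 in GMP), with expression of 151.3 against 1121. Of the genes that mark other cells, Itgax had 1 enhancer that was higher in granulocytes (4.13 against 0.815 in GMP) and Prg2 1 that was lower (1.27 against 3.62).

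**Figure D2:**
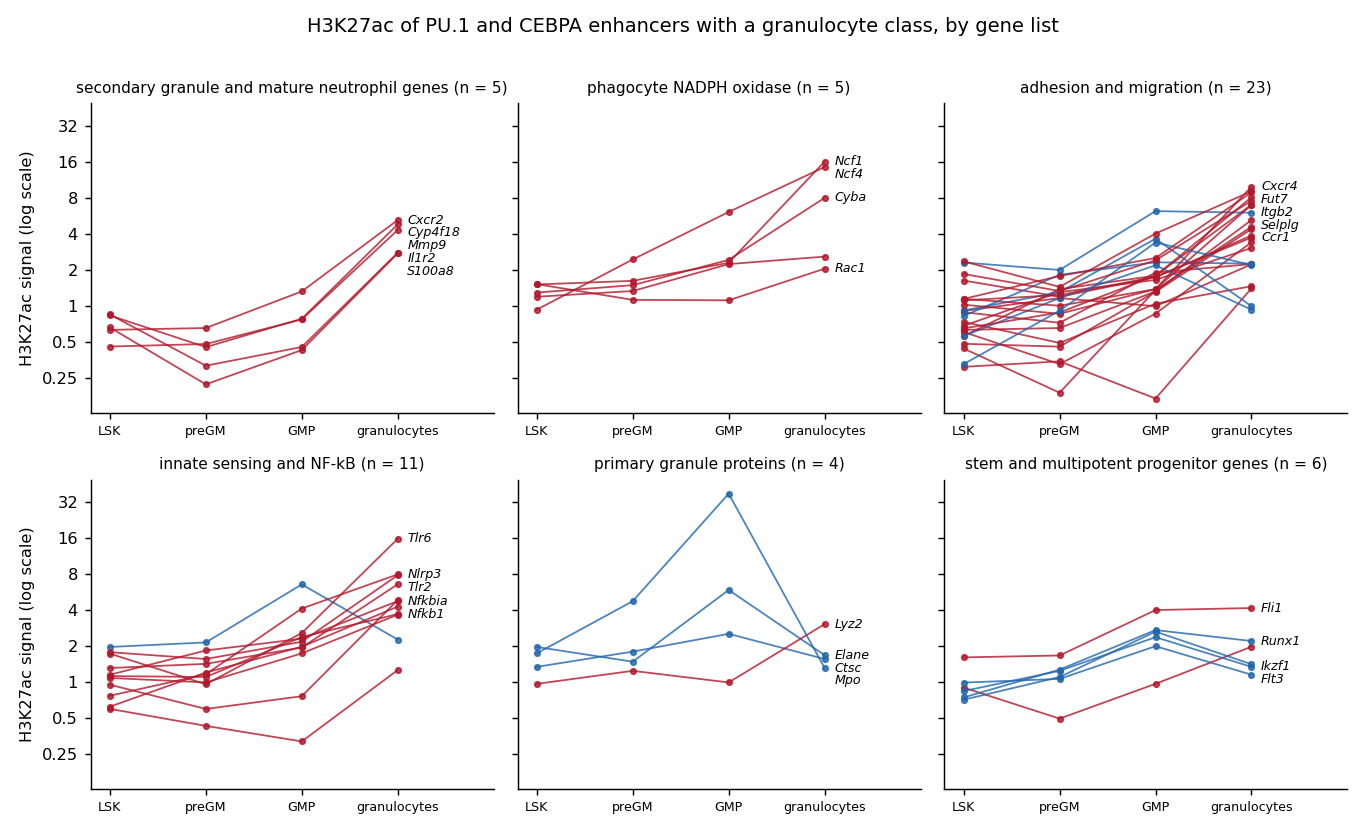
H3K27ac signal (vertical axis, log scale) in wild type LSK, preGM, GMP and granulocytes (horizontal axis) at each PU.1 and CEBPA enhancer with a granulocyte stage that was assigned to a gene of 6 lists. Each line is 1 enhancer, red where the signal was higher in granulocytes than in GMP and blue where it was lower, and up to 5 genes per list are named in the order of their strongest signal in granulocytes. All lines of the secondary granule and NADPH oxidase lists end higher in granulocytes than in GMP, while Mpo peaks at 37.9 in GMP.

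Genes with the most such enhancers showed how far neighbours varied. Sp3 had 7, and Emb, Hlx, Irf2bp2, Thbs1 and Tomm20 had 6 each. All 6 enhancers of Thbs1, which encodes thrombospondin-1, had more H3K27ac in granulocytes than in GMP, with log2 ratios of 0.93 to 1.96, and all 6 of Hlx, a homeobox factor, had ratios of 0.19 to 2.34. The 6 of Irf2bp2 spread widest, with ratios of -2.57 to 2.04.

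Expression was at least 2-fold higher in granulocytes than in GMP for 22.9% of the 1592 genes (364; background 12.0% of 10096) and lower for 17.3% (275; background 19.7%). The genes without such an enhancer had 9.91% higher and 20.2% lower, and genes of PU.1 and CEBPA enhancers of progenitors only, some of them the same genes, 18.7% higher and 16.8% lower. These shares were not tested against each other. The highest were Mmp9, Plbd1 (4988 in granulocytes against 61.16 in GMP), Cyba, Itgb2 and Fam46c, and the lowest F13a1, coagulation factor XIII A (109.2 against 4689), and Bex6. Between GMP and LSK, 12.1% were at least 2-fold higher in GMP (193; background 8.77%), led by S100a8 (2902 in GMP against 26.9 in LSK) and F13a1, and 4.96% were lower (79; background 3.98%). The lowest there was Egr1, an immediate-early gene (31.98 in GMP against 2589 in LSK), followed by Ccl3, Flt3, Gcnt2, Dusp1 and Jun.

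Where the mark differed, expression of the assigned gene more often differed the same way than the opposite way. For the 661 enhancers with at least 2-fold more H3K27ac in granulocytes, 39.0% were assigned to a gene at least 2-fold higher in expression and 6.51% to one lower. For the 89 with at least 2-fold less, 0% were assigned to a gene higher and 48.3% (43) to one lower, and for the other 1453 the shares were 21.2% and 18.3%. Over all enhancers the shares were 43.6% and 6.16% where H3K27ac was higher and 4.28% and 41.9% where it was lower, so the relation at these enhancers was close to that of the whole table. Across the 2203 enhancers Pearson's r between the log2 ratios was 0.36, and 0.38 across all 44002. Enhancers of 1 gene share its expression value and are not independent.

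**Figure D3:**
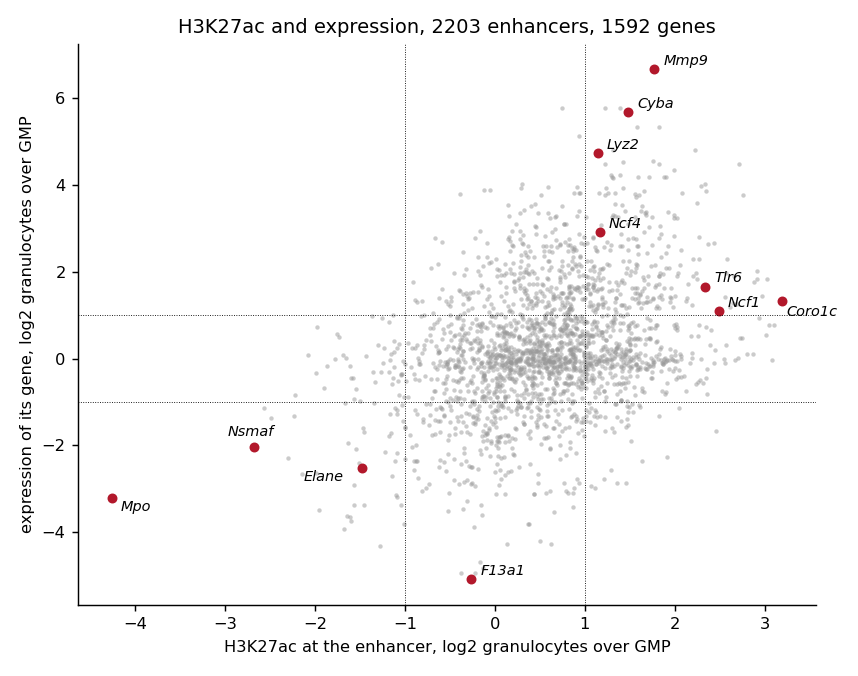
Log2 ratio of granulocytes over GMP for H3K27ac at each of the 2203 PU.1 and CEBPA enhancers with a granulocyte stage (horizontal axis) and for expression of the assigned gene (vertical axis). Each point is 1 enhancer, dotted lines mark 2-fold, and for named genes the enhancer with the largest H3K27ac ratio is in red. Mpo and Elane lie at the lower left and Mmp9, Cyba and Lyz2 at the upper right.

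PU.1 binding at these enhancers was stronger in preGM than in LSK and then stayed near that level in GMP. The median PU.1 signal was 3.31 in LSK, 6.02 in preGM and 6.44 in GMP. Relative to LSK, preGM had at least 2-fold more PU.1 at 28.0% (616; background 6.56%) and less at 0% (background 0.0364%). Relative to the median of all enhancers, which was 0.30 higher in preGM on the log2 scale, the share was 11.4% (2.2% of all). Between GMP and preGM it was at least 2-fold higher in GMP at 5.76% (127; background 0.768%) and lower at 0.182% (4; background 0.775%). By stage class, the share higher in GMP than in preGM was 11.0% for granulocytes alone, 7.92% with GMP added, 0.296% with preGM added and 0.394% with all 4 stages. Since all of these were chosen for PU.1 binding, these levels describe the selection. Enhancers bound by neither factor had at most 2.999 in GMP, against 8.706 in preGM, so the background may be shaped by the selection too.

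The highest PU.1 ratio of preGM to LSK was at the Ncf4 enhancer, where the PU.1 signal was 2.26 in LSK, 19.8 in preGM and 28.0 in GMP. Enhancers of Prkcd, protein kinase C delta (5.23 in LSK, 26.6 in preGM and 34.9 in GMP), and Cd33, a sialic acid-binding receptor (1.06, 6.67 and 8.02), showed the same order. Higher PU.1 in GMP than in preGM was found at Limk2 (17.98 in GMP against 3.11 in preGM), Prom1 (11.8 against 2.30) and Sgms2 (8.08 against 1.76), whose stage class was granulocytes alone. One enhancer, assigned to Arf6, stood apart in several assays: its PU.1 signal was 4.11 in LSK, 3.89 in preGM and 63.6 in GMP, and its H3K27ac 3.28 in LSK, 22.2 in preGM, 4.72 in GMP and 10.2 in granulocytes.

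CEBPA signal in wild type preGM varied widely among enhancers that all carry the CEBPA class. The median was 1.00, and the values ran between 0.142 and 19.6. Of the enhancers, 68.7% (1513) lay above 0.788, the level exceeded by 10% of enhancers bound by neither factor. PU.1 in preGM lay above the like limit of 2.14 at 93.3% (2056). High CEBPA signals were at enhancers of Itgb7, an integrin chain (19.5), Ndrg1 (18.9), Fut7, the fucosyltransferase that makes selectin ligands (16.7), and Runx1 (12.9).

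In Cebpa KO preGM, PU.1 was weaker at almost all of these enhancers. The median PU.1 signal was 3.30 in KO preGM against 6.02 in wild type preGM, and KO was below wild type at 98.0% (2158), against 71.7% of all enhancers. That share was 98.3% at PU.1 and CEBPA enhancers of progenitors only and 96.3% at PU.1-only enhancers with a granulocyte stage. At the PU.1 and CEBPA enhancers with a granulocyte stage, the signal was at least 2-fold lower in KO at 27.1% (597; background 6.15%) and higher at 0.0454% (1; background 0.0955%). All enhancers were lower by a median of 0.27 on the log2 scale, and relative to that shift 11.2% were at least 2-fold lower (1.99% of all), while with a pseudocount 4 times larger 8.85% were. The level in KO preGM was near that in LSK: 3.30 against 3.31 in the median, with 1.91% at least 2-fold higher than LSK (background 0.952%) and 0.59% lower (background 0.291%). These comparisons share the wild type preGM or LSK values, so they are not independent of each other.

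The PU.1 difference was of about the same size at PU.1 and CEBPA enhancers of progenitors only. There 28.3% were at least 2-fold lower in KO. PU.1-only enhancers with a granulocyte stage had 14.2%, with a median log2 ratio of -0.66 against -0.78 at enhancers with both factors, and CEBPA-only ones 2.4%. Enhancers with both factors also had more PU.1, and the shares by PU.1 signal in GMP stand side by side here. PU.1 binding in part defines the classes, and the signal in GMP appears to be among the values used. It was at most 2.999 at enhancers bound by neither factor and 2.997 at CEBPA-only ones with a granulocyte stage. The part of PU.1 level in the difference was not tested. At a PU.1 signal of 2 to 4 the share at least 2-fold lower was 14.0% with both factors against 7.2% with PU.1 only. It was 24.5% against 15.6% at 4 to 8, 35.1% against 21.2% at 8 to 16 and 41.1% against 31.6% at 16 or more.

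Within the 2203 enhancers the share with lower PU.1 was larger with more of the CEBPA signal of wild type preGM. In 5 equal groups from the weakest to the strongest CEBPA signal, 20.2%, 23.8%, 24.8%, 29.3% and 37.4% were at least 2-fold lower in KO, and the median log2 ratios were -0.70, -0.75, -0.76, -0.80 and -0.89. The median PU.1 signal in wild type preGM was 5.87, 5.83, 6.07, 5.80 and 6.37 in the 5 groups and that in GMP 5.68, 5.93, 6.56, 6.52 and 7.09, and the part of PU.1 level in the shares was not tested. Across single enhancers the relation was weak, with a Spearman correlation of -0.17 that is given as description, over values that share wild type preGM. The weakest group, with a median CEBPA signal of 0.519, still had a median log2 ratio of -0.70.

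**Figure D4:**
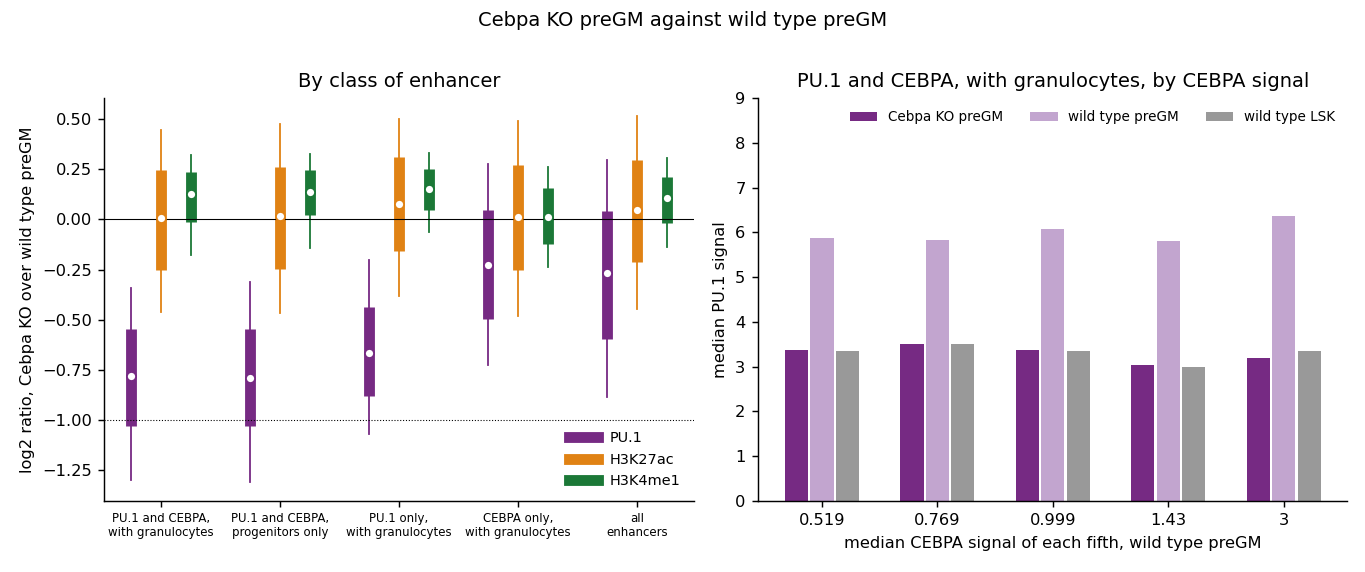
Left, log2 ratio of Cebpa KO over wild type preGM (vertical axis) for PU.1, H3K27ac and H3K4me1 in 5 classes of enhancers, with medians as circles, quartiles as thick bars and the 10th to 90th percentiles as thin lines; the dotted line marks 2-fold lower. Right, median PU.1 signal in KO preGM, wild type preGM and wild type LSK (bars from 0) in 5 equal groups of PU.1 and CEBPA enhancers with a granulocyte stage, placed by their median CEBPA signal. PU.1 in KO lies below wild type preGM and near LSK in each group, while the medians of H3K27ac lie near 0.

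Named enhancers show the size of the PU.1 difference. At Ctsz, which encodes cathepsin Z, the PU.1 signal was 0.639 in KO against 6.37 in wild type preGM, the lowest log2 ratio (-2.49), and at Ctsd, cathepsin D, 1.25 against 8.13. At Prkcd it was 5.98 against 26.6, and at Ncf4 8.92 against 19.8, while both had less in LSK than in wild type preGM. The 1 enhancer at least 2-fold higher in KO was that of Arf6, with 19.5 in KO against 3.89 in wild type preGM.

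By function, at least 2-fold less PU.1 in KO was counted at 10 of 23 enhancers of adhesion and migration genes, 7 of 11 of innate sensing and NF-kB, 6 of 17 of cytokine receptors and 7 of 13 of cell cycle genes. It was counted at 3 of 3 enhancers of monocyte and macrophage genes: Cd68 had 3.04 in KO against 11.3 in wild type, F13a1 3.27 against 9.88, and Emr1 6.68 against 16.6. It was counted at 2 of 5 of the NADPH oxidase, 2 of 4 of primary granule genes (Elane with 0.703 in KO against 3.27 in wild type, and Lyz2 with 0.896 against 2.84), 1 of 5 of mature neutrophil genes (Cxcr2), 3 of 6 of stem and multipotent progenitor genes and 2 of 17 of myeloid transcription factors. Of 4 Cxcr4 enhancers, 2 were among them, with 1.81 and 3.26 in KO against 5.77 and 11.6 in wild type. All 3 Tlr2 enhancers were among them as well. For comparison, 27.1% of all 2203 and 6.15% of all 44002 were lower.

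The median signals of both histone marks differed less between KO and wild type preGM than that of PU.1. The 2-fold shares cannot be compared between assays, because the pseudocounts were 0.7 for H3K27ac, 2 for H3K4me1 and 0.6 for PU.1. Relative to the median signal they were larger for the histone marks, whose ratios are understated more. The median H3K27ac signal was 1.12 in KO against 1.26 in wild type preGM, with 0.635% at least 2-fold lower (14; background 0.47%) and 0.227% higher (5; background 0.441%). The median log2 ratio was 0.00, with 50.4% above 0, and the share lower depended on the pseudocount, at 4.22% with one 4 times smaller and 0.0% with one 4 times larger. Lower ones were at Atg5 (0.475 in KO against 2.13 in wild type), Prkcd (0.752 against 2.79), Il6ra, the interleukin-6 receptor (1.35 against 3.84), and Zeb2 (0.383 against 1.49). The higher ones were at Grb2 (1.63 in KO against 0.276 in wild type), Rps6ka1 (2 enhancers), Psmg1 and BC051142. The median H3K4me1 signal was 3.53 in KO against 3.10 in wild type preGM, and over all enhancers it was 3.48 against 3.07. No enhancer differed by 2-fold in H3K4me1 (0% of the 2203, against 0.00909% of all lower). In wild type, H3K27ac in preGM was itself close to LSK, with a median of 1.26 against 1.14.

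Few genes with these enhancers were counted as at least 2-fold different in expression in KO preGM. The pseudocount for this set was 70, while these genes had a lower quartile of 81.6 and a median of 167.0 in wild type preGM. A gene below 70 in wild type could not be counted as lower in KO, and ratios of weakly expressed genes are understated. The counts therefore do not show whether weakly expressed genes differed. Expression was at least 2-fold lower in KO for 0.691% (11 of 1592; background 0.307%) and higher for 0.188% (3; background 0.188%). The lowest was Emb, which encodes the cell surface protein embigin, with 159.6 in KO against 1758 in wild type, followed by Cxcr2 (87.67 against 570.4), Flt3, a cytokine receptor of early progenitors (118.2 against 535.6), F13a1 (38.66 against 258.3) and S100a8 (24.83 against 212.3). Elane (53.09 against 213.0) and Ifngr2 (84.36 against 241.3) were also lower. In the set of wild type stages Cxcr2 was at 48.9 in preGM, near its 53.89 in LSK and 47.6 in GMP. That set thus did not show a raised Cxcr2 level in preGM, and the sets were not compared with each other. The 3 higher genes were Aqp11, Eps8l3 and Alox5, the 5-lipoxygenase gene (368.7 in KO against 146.3 in wild type). The 11 lower genes had 19 of the enhancers, of which 12 (63.2%) had at least 2-fold less PU.1 in KO, against 26.8% at genes within 2-fold, and their median CEBPA signal was 2.34 against 0.998. Of the 19, Emb had 6 and Ifngr2 had 4, and enhancers of 1 gene are not independent.

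At the 6 enhancers of Emb the PU.1 signal in KO was lower throughout, at 1.22 against 3.27 in wild type preGM, 0.763 against 2.92, 4.72 against 7.11, 0.962 against 2.45, 3.27 against 9.93 and 0.742 against 1.43. The 4 enhancers of Ifngr2, a chain of the interferon gamma receptor, had 10.6 in KO against 26.1 in wild type preGM, 7.82 against 12.2, 1.29 against 3.44 and 1.26 against 5.45. H3K27ac at the first of these was 0.556 in KO against 1.72 in wild type and 6.92 in wild type granulocytes. At Flt3 the PU.1 signal was 0.753 in KO against 3.84 in wild type, and H3K27ac 0.578 against 1.07. Genes with an enhancer that had more H3K27ac in granulocytes than in GMP included Cxcr2, S100a8, Alox5 and Ifngr2. These differed by 2-fold in expression in KO preGM, as given above. Other such genes were Cyba, with an expression of 175.3 in KO against 225.8 in wild type, and Mmp9, with 43.05 against 41.82.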

How the data were processed

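The values came from the authors' deposited table of enhancers, which gives for each its mm9 coordinates, the gene it was assigned to, stage and binding classes, and 1 signal value per group. The 15 ChIP-seq columns used match 30 listed libraries, 2 per group, by assay, stage and genotype. The 6 expression columns match groups with 3 libraries each by name only. Both columns for wild type preGM match the same 3 libraries although their values differ. Which libraries stand behind each expression set is therefore not known. How libraries were pooled and scaled into the deposited signal, and the criteria of the classes, are not given in the sources used here. Tools in the submitters' processing notes, listed without roles or versions, are STAR, featureCounts, DESeq2, MACS2, Bowtie2 and bedtools. The deposited expression values carry no stated scale and were treated as a score. Another 11 value columns were not used: 5 match no sample in the series and 6 hold a quantity without a description in the labels. CFU-G, CFU-M and monocytes were not analysed here.

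Each comparison was a log2 ratio of deposited signal with a pseudocount in both groups, set at about the 25th percentile of each assay: 0.7 for H3K27ac, 2 for H3K4me1, 0.6 for PU.1, and 30 and 70 for the wild type and KO sets of expression. Ratios of at least 1 in size were counted, with no filter and no test, since the table holds no replicate values. Expression was counted once per gene. Gene names are the table's; of the 1592, RefSeq lists 1448 under the same symbol and another 137 under a synonym. The counting step was checked on deposited columns with known differences planted by the same formula, which shows only that the counting runs as written. Python 3.11.15, pandas 2.3.3, numpy 2.4.6, scipy 1.17.1 and matplotlib 3.10.9 were used.

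Genes were named by rule: per comparison the 6 highest and 6 lowest ratios among enhancers at least 2-fold different with at least median signal in the higher group, up to 4 genes of each list in the main direction and 2 in the other, the 8 highest CEBPA signals and the 6 genes with most enhancers. Other genes named were chosen after their values were seen. One gene that the rule named is not reported here. The enhancers and lists were chosen with earlier results of these data known. Alternatives were a pseudocount 4 times smaller or larger, subtraction of the median of all features, and 1 enhancer per gene.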

Additional observations from a re-analysis of the deposited data

How the results depend on the processing

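Of 54 alternatives, 28 left a share or median close to the reported one and 26 moved it. None made the share in the opposite direction the larger one. A share that fell to 0.0%, as some below did, was no longer the larger one. For H3K4me1 in Cebpa KO the share was 0.0% as reported. The shares below are of enhancers (or genes, for expression) at least 2-fold apart in the direction reported. A pseudocount 4 times smaller gave, for H3K27ac, 4.13% for preGM against LSK, 27.1% for GMP against preGM and 4.22% lower in Cebpa KO. It gave for H3K4me1 12.9% for GMP against LSK, 20.8% for granulocytes against GMP and 0.0454% for Cebpa KO, and 1.07% of genes lower in expression in Cebpa KO. A pseudocount 4 times larger gave, for H3K27ac, 0.0454% for preGM against LSK, 2.36% for GMP against preGM, 12.0% for granulocytes against GMP, 26.7% for granulocytes against LSK and 0.0% for Cebpa KO. It gave 0.0% for both H3K4me1 steps, and for PU.1 8.4% for preGM against LSK, 1.82% for GMP against preGM and 8.85% lower in Cebpa KO. For expression it gave 7.98% for GMP against LSK and 0.188% for Cebpa KO. Subtracting the median of all features gave 5.08% for H3K27ac in GMP against preGM, 34.4% for H3K27ac in granulocytes against LSK, 1.45% and 1.13% for the H3K4me1 steps, 11.4% for PU.1 in preGM against LSK and 11.2% for PU.1 in Cebpa KO. With 1 enhancer per gene the median CEBPA signal was 1.11. By construction a larger pseudocount shrinks the ratios of weak signals. No paired analysis was possible because the table holds 1 pooled value per group, and for the same reason no replicate could be left out. Depth per library is unknown, so no limit of detection can be given.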
